A study of Rattus norvegicus with 17 samples.

Results

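Gap43 and Marcks encode classic substrates of Protein Kinase C (PKC), and their transcript levels were compared between rats given Enzastaurin (ENZ) and rats given vehicle. They are 2 of the 26402 genes in the deposited table and were chosen by Ensembl identifier, ENSRNOG00000001528 for Gap43 and ENSRNOG00000000579 for Marcks. The table holds identifiers without names, and the pairing of these identifiers with their symbols was given with the choice of genes rather than read from the files. Both identifiers were found in the table.

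Tissue came from the CA1/CA2 region of the hippocampus of male Fischer-344 rats aged 12 months. ENZ, a PKCβ-selective inhibitor, was injected under the skin once a day for 3 days at 25 mg/kg in polyethylene glycol, and the vehicle group received polyethylene glycol alone. All rats swam the Morris maze on those days and were killed after its last trial, so maze training was shared by both groups. The sample labels name 10 vehicle and 7 ENZ rats, with 1 library per rat.

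GAP-43, also called neuromodulin, is a protein of growth cones and presynaptic terminals that binds calmodulin and takes part in neurite growth and transmitter release. MARCKS, the myristoylated alanine-rich C-kinase substrate, sits on the inner face of the plasma membrane, where it binds actin, calmodulin and acidic lipids. Phosphorylation by PKC stops GAP-43 from binding calmodulin and releases MARCKS from the membrane. Those steps act on the proteins, whereas RNA sequencing measured the amount of transcript only.

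Values are normalized counts, in which each rat's read counts were scaled by its size factor. They are not divided by gene length, so the levels of the genes are compared between rats and not with each other. Whole reads could be recovered for every rat. Vehicle rat G1_80 held 33422 reads on genes, while the other 16 rats held 2716777 to 20731523. At that depth 1 read counted for 103.4 normalized counts, so results are given for the 16 other rats first (9 vehicle and 7 ENZ) and then with that rat. Among the 16 rats, mean log10 reads were 6.78 in ENZ and 6.91 in vehicle (two-sided exact permutation test over 11440 splits, p = 0.284). In a homogenate, fewer cells of a type and less transcript per cell cannot be told apart. Cell type markers were not checked, because their names could not be paired with identifiers.

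Gap43 differed by less than the spread between rats. In the vehicle group without rat G1_80 it ran from 579.9 normalized counts (rat G1_18) through a median of 704 to 901 (rat G1_89). In the ENZ group it ran from 610.4 (rat G2_152) through a median of 748 to 1047 (rat G2_125). The ranges overlapped, with 3 ENZ rats above every one of the 9 vehicle rats and 3 vehicle rats below every ENZ rat. These 3 ENZ rats were G2_71 at 909, G2_62 at 916 and G2_125 at 1047 normalized counts. Of the 7 ENZ rats, 5 lay above the vehicle median and 2 below it. The vehicle mean was 706 ± 115.7 (SD, n = 9) and the ENZ mean was 799.5 ± 160.3 (SD, n = 7).

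The log2 fold change of Gap43, ENZ over vehicle on log2(normalized count + 1), was 0.17 (standard error 0.12, 95% interval -0.071 to 0.41), and the adjusted p by limma was 0.9998. As a fold this was 1.13, with an interval of 0.952 to 1.33. A two-sided exact permutation test over the rats gave p = 0.202. The limma fit tested 13853 genes, of which 0 (0%) passed an adjusted p-value of 0.05 by limma, edgeR or DESeq2. At an unadjusted p-value of 0.05, 324 genes (2.34%) passed by limma, and Gap43, with p = 0.155 by limma, was not among them. This share is below the 0.05 that chance alone would give on average. 10.8% of the genes had a smaller p-value than Gap43. With rat G1_80 the log2 fold change was 0.11 (95% interval -0.17 to 0.40, adjusted p = 0.786 by limma), against a median of 0.16 over all genes in that fit of 17 rats. Relative to that median Gap43 was at -0.045, below the typical gene. Over the 16 rats the median was -0.004, and Gap43 was 0.175 above it. Rat G1_80 had reads on 8185 genes, against at least 15900 in each other rat, and a gene without reads entered at 0. The part of this rat in the median of 0.16 was not tested. In the fit of 17 rats, 0 (0%) of 13844 genes passed after adjustment and 38 (0.274%) before it.

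Marcks also differed by less than the spread between rats, and its mean was lower in ENZ. In the vehicle group without rat G1_80 it ran from 141 normalized counts (rat G1_8) through a median of 174 to 252 (rat G1_134). In the ENZ group it ran from 136 (rat G2_125) through a median of 153 to 220.4 (rat G2_152). The ranges overlapped almost wholly, with 2 ENZ rats below the lowest of the 9 vehicle rats and 1 vehicle rat above the highest ENZ rat. Of the 7 ENZ rats, 5 lay below the vehicle median. The vehicle mean was 177 ± 36.1 (SD, n = 9) and the ENZ mean was 164 ± 30.2 (SD, n = 7).

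The log2 fold change of Marcks was -0.10 (standard error 0.12, 95% interval -0.36 to 0.15), and the adjusted p by limma was 0.9998. As a fold, ENZ over vehicle, this was 0.931, with an interval of 0.781 to 1.11. A two-sided exact permutation test over the rats gave p = 0.449, and 34.1% of the 13853 genes had a smaller limma p-value. One vehicle rat carried much of this difference, since without rat G1_134 the log2 fold change of Marcks was -0.037 (exact permutation p = 0.754). With rat G1_80 it was -0.029 (95% interval -0.36 to 0.30, adjusted p = 0.926 by limma), or -0.19 relative to the median of all genes. The intervals do not show that the groups were alike. Over the 16 rats they leave room for a rise of Gap43 up to 1.33-fold and for a fall of Marcks down to 0.781 of the vehicle level.

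**Figure D1:**
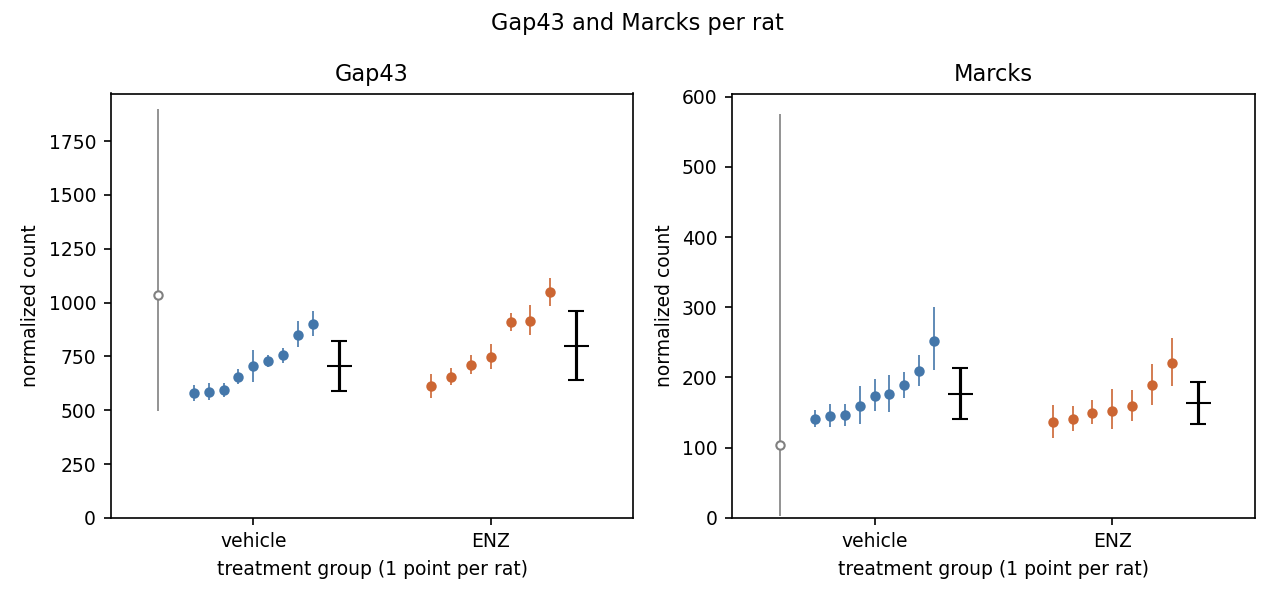
Normalized counts of Gap43 (left) and Marcks (right) in each rat, ordered by value within the vehicle and ENZ groups. Bars on points are Poisson 95% intervals of the reads, black marks are the group mean ± SD without rat G1_80, and the open grey point is rat G1_80, whose interval for Gap43 runs from 496 to 1901. The ENZ and vehicle points overlap for both genes.

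Both estimates kept their sign when the values were handled in other ways, although over all 17 rats Gap43 was below the median of all genes. That median was 0.16 with rat G1_80 and -0.004 without it. The alternatives were other pseudocounts, filters, normalizations, weights and tools, all 17 rats, 13 rats, and 3 principal components as covariates. Over them the log2 fold change of Gap43 stayed between 0.073, with the components as covariates, and 0.18. That of Marcks stayed between -0.11 and -0.029. The smallest adjusted p-value among these fits was 0.786 for Gap43 and 0.926 for Marcks, both by limma over all 17 rats. Single ENZ rats also moved Gap43, with a log2 fold change of 0.10 without rat G2_125 (exact permutation p = 0.414) and 0.23 without rat G2_152 (exact permutation p = 0.0937). Leaving out the same rats gave Marcks a log2 fold change of -0.062 without rat G2_125 (exact permutation p = 0.662) and -0.18 without rat G2_152 (exact permutation p = 0.185).

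**Figure D2:**
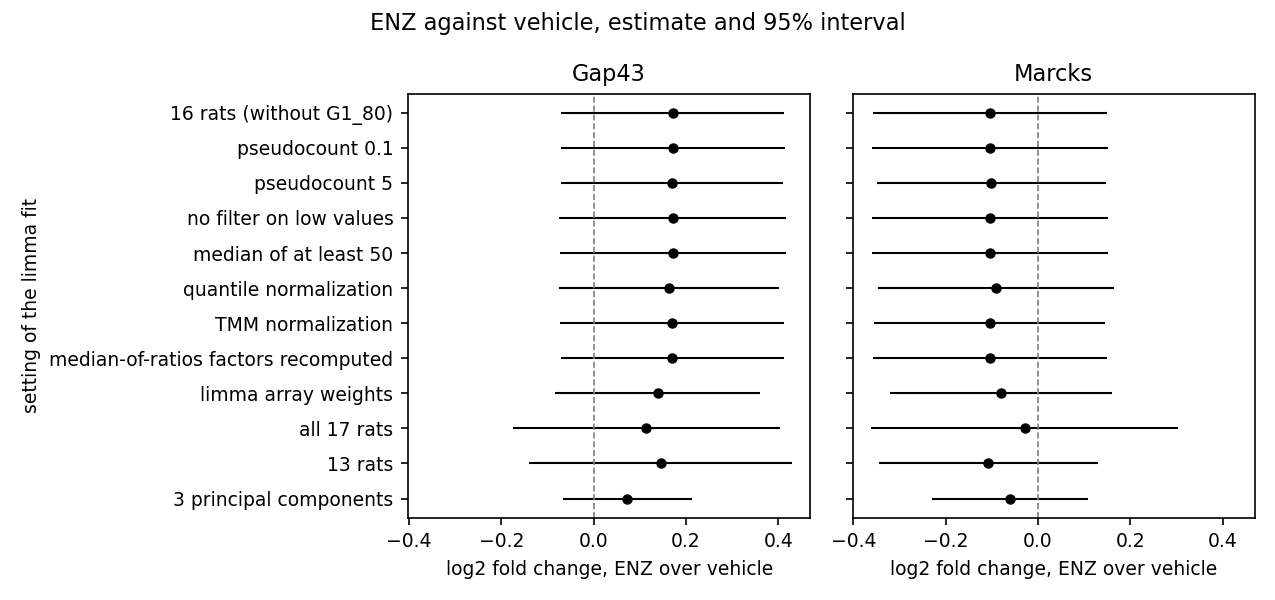
Log2 fold change, ENZ over vehicle, with its 95% interval (horizontal axis) for Gap43 (left) and Marcks (right) under each setting of the limma fit (vertical axis). The dashed line marks no difference, and every interval crosses it, from the estimates of 0.17 and -0.10 over 16 rats to those of 0.11 and -0.029 over all 17.

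Library G1_80 could say little about either gene. It held 10 reads of Gap43, worth 1034 normalized counts with a Poisson 95% interval of 496 to 1901, which takes in the level of every other rat. It held 1 read of Marcks, worth 103.4 normalized counts with an interval of 2.62 to 576. In the other 16 rats Gap43 rested on 360 to 2846 reads and Marcks on 115 to 551. These intervals cover counting error only, since reads without molecular identifiers are not independent molecules.

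The rats differed from each other in both genes by more than reads alone would give. Over the 16 rats the coefficient of variation, SD over mean of the normalized counts, was 18.8% for Gap43, where counting reads would give 3.40%. For Marcks it was 19.4%, where counting would give 7.25%. With the counting part taken out, 18.5% remained for Gap43 and 18.03% for Marcks. The median over the 13853 genes was 9.13%, and 81.4% and 80.5% of genes varied less than Gap43 and Marcks on this measure. Both genes ranked lower on the coefficient of variation with the counting part left in, whose median over the genes was 13.8%. There 66.4% of genes varied less than Gap43 and 67.99% less than Marcks. The highest rat was 1.81 times the lowest for Gap43 and 1.86 times for Marcks.

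**Figure D3:**
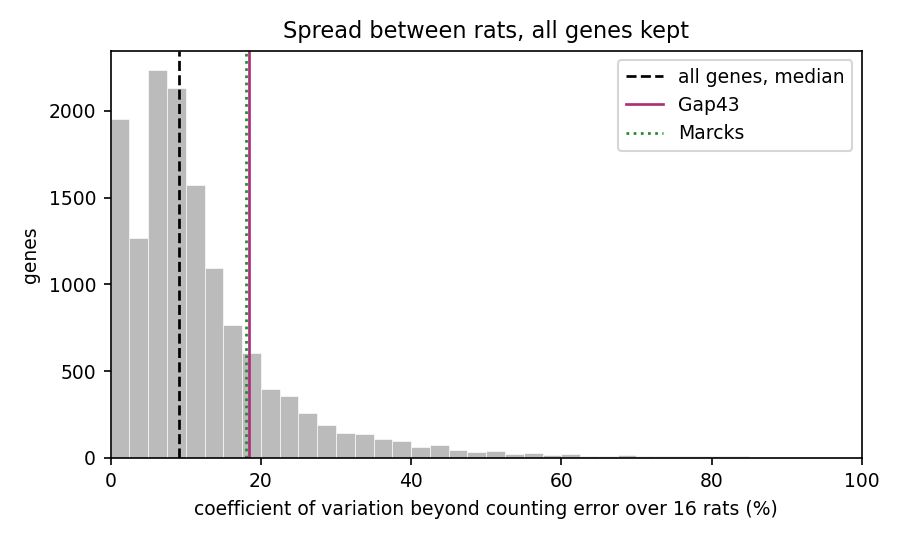
Number of genes (vertical axis) by coefficient of variation beyond counting error over the 16 rats (horizontal axis, in %), with 92 genes above 100% not drawn. The solid line is Gap43 at 18.5%, the dotted line Marcks at 18.03% and the dashed line the median of all genes at 9.13%.

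The spread of neither gene was shown to differ between the groups. The SD of log2 values for Gap43 was 0.29 in ENZ and 0.23 in vehicle, a log2 ratio of 0.31 (two-sided permutation test, p = 0.422). For Marcks it was 0.25 in ENZ and 0.28 in vehicle, a log2 ratio of -0.15 (permutation p = 0.765). With rat G1_80 these log2 ratios were 0.020 for Gap43 (permutation p = 0.963) and -0.50 for Marcks (permutation p = 0.436). Every split was run, but values were centred on their group mean, so these p-values are approximate.

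The ratio of Gap43 to Marcks was then compared, because a ratio within a rat does not depend on its size factor. Gap43 over Marcks ran from 2.77 (rat G1_18) through a median of 4.11 to 5.35 (rat G1_107) in vehicle. It ran from 2.77 (rat G2_152) through a median of 4.66 to 7.705 (rat G2_125) in ENZ. The same 3 ENZ rats that were high in Gap43, G2_62 at 6, G2_71 at 6.06 and G2_125, exceeded every vehicle rat but G1_80. The mean log2 ratio, with 1 added to each count, was 1.999 ± 0.39 (SD, n = 9) for vehicle and 2.27 ± 0.48 (SD, n = 7) for ENZ, a difference of 0.27 (two-sided exact permutation test, p = 0.222). This difference was less than the SD of either group, and it was 0.16 without rat G2_125 (exact permutation p = 0.442) and 0.41 without rat G2_152 (exact permutation p = 0.0617). With rat G1_80, whose ratio of 10 rests on a single Marcks read, the difference was 0.14 (exact permutation p = 0.584).

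The balance of reads at the ends of each group is given as a description, with intervals that cover counting error only. In ENZ rat G2_125, Gap43 made up 88.5% of the reads of both genes (Wilson 95% interval 86.5% to 90.2%). In ENZ rat G2_152 it made up 73.5% (Wilson 95% interval 69.9% to 76.7%). Vehicle rats G1_107, at 84.2% (Wilson 95% interval 81.7% to 86.5%), and G1_18, at 73.5% (Wilson 95% interval 71.1% to 75.8%), were the highest and lowest of vehicle without rat G1_80.

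**Figure D4:**
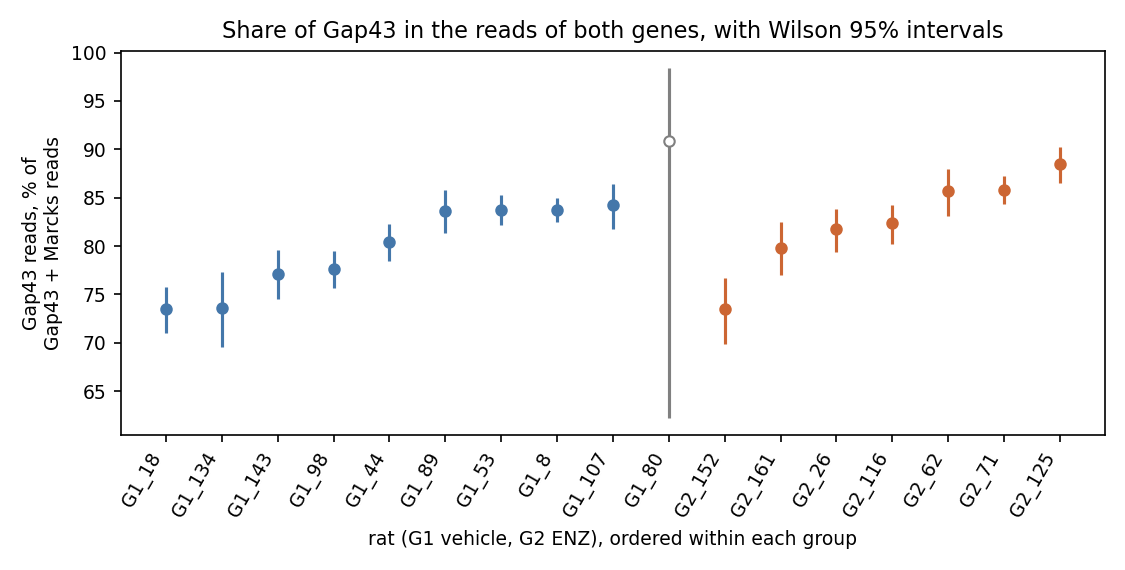
Gap43 reads as a percent of Gap43 plus Marcks reads (vertical axis, starting above 0) in each rat, with Wilson 95% intervals, ordered within vehicle (blue, with rat G1_80 open) and ENZ (orange). The ENZ rats run from 73.5% to 88.5% and the vehicle rats without G1_80 from 73.5% to 84.2%, while the interval of rat G1_80 runs from 62.3% to 98.4%.

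Whether Gap43 and Marcks varied together depended on the rats included. Over the 16 rats their log2 values had a Pearson r of -0.41 (permutation test with 100000 resamples, p = 0.112) and a Spearman rho of -0.39 (permutation p = 0.141). Adjusted over the 9 relations computed here, these p-values were 0.202 and 0.253. Without rats G1_134 and G2_152, farthest from the median of Marcks, r was -0.40 (permutation p = 0.162). Within vehicle r was -0.18 (n = 9, exact permutation p = 0.6501) and rho -0.25 (exact permutation p = 0.521). Within ENZ r was -0.62 (n = 7, exact permutation p = 0.144) and rho -0.57 (exact permutation p = 0.2). With other sets of rats r was -0.52 without rat G1_44 (permutation p = 0.0471), -0.55 with rat G1_80 and its single Marcks read (permutation p = 0.0214) and -0.63 in the 13 rats without rats G1_80, G1_44, G1_134 and G1_8 (permutation p = 0.0234). It was -0.31 without rat G2_125 (permutation p = 0.2602), -0.34 without rat G1_18 (permutation p = 0.215) and -0.35 without rat G2_152 (permutation p = 0.205). The rats left out to give the set of 13 were all vehicle, and no rule for leaving them out is given here.

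**Figure D5:**
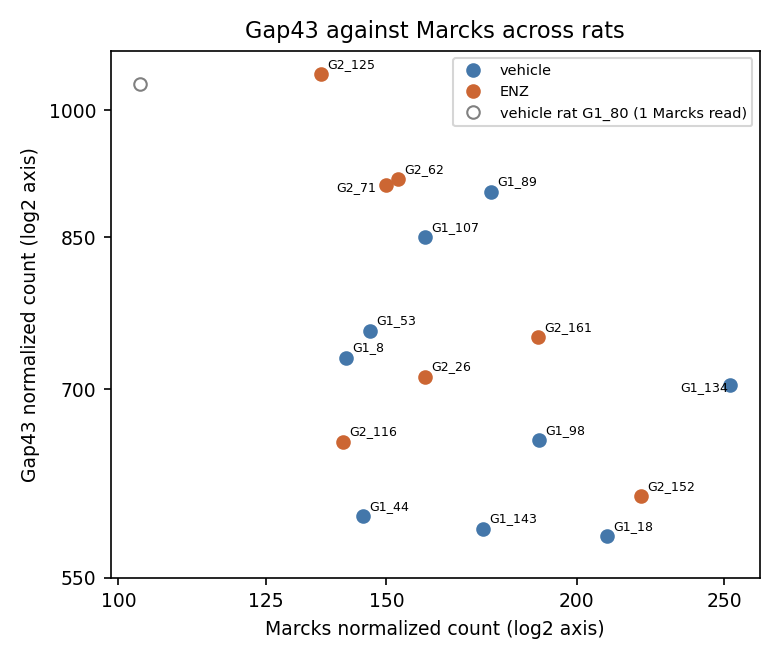
Normalized counts of Gap43 (vertical log2 axis) against Marcks (horizontal log2 axis), 1 point per rat, vehicle in blue and ENZ in orange. ENZ rat G2_125 is highest in Gap43 at 1047 and lowest in Marcks at 136 among the 16 rats, and the open point is rat G1_80, left out of r = -0.41.

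Each gene was correlated with a broad axis of variation among the 16 rats, on which the treatments were not shown to differ. Principal components were computed on log2 values of all 13853 genes, these included. Marcks went with the second component (15.2% of the variance), with r = -0.77 (permutation p = 0.00057, adjusted over 9 relations 0.00513) and rho = -0.81 (permutation p = 0.00015, adjusted 0.00135). Without rats G2_125 and G2_152, at the ends of that component, r was -0.72 (permutation p = 0.00321). Gap43 went with the first component (20.002% of the variance), with r = -0.66 (permutation p = 0.00528, adjusted 0.0238) and rho = -0.71 (permutation p = 0.00291, adjusted 0.0131). Without rats G2_62 and G1_44, r was -0.55 (permutation p = 0.0408). How many other genes had an r as large was not counted, so these p-values do not set either gene apart. The sign of a component is arbitrary. Scores of ENZ and vehicle rats had p = 0.515 on the first and p = 0.699 on the second (two-sided exact permutation tests). With the first 3 components as covariates, the log2 fold change was 0.073 for Gap43 (95% interval -0.067 to 0.21) and -0.061 for Marcks (95% interval -0.23 to 0.11), with an adjusted p of 0.9997 by limma for both.

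The other relations did not pass after adjustment over the 9. Gap43 and the second component had r = 0.54 and rho = 0.56 (permutation p = 0.0301 and 0.0276, adjusted 0.0869 and 0.0828), but r was 0.22 without rats G2_125 and G2_152. Marcks and log10 reads had r = -0.52 and rho = -0.46 (permutation p = 0.0386 and 0.0791, adjusted 0.0869 and 0.178). That r fell to -0.22 without the deepest and the shallowest of the 16 rats, G1_8 and G1_134. Gap43 and log10 reads had r = -0.24 and rho = -0.18 (permutation p = 0.362 and 0.498, adjusted 0.485 and 0.6397). Gap43 and the third component (13.5% of the variance) had r = -0.16 and rho = 0.094 (permutation p = 0.5703 and 0.726, adjusted 0.5703 and 0.817), but r was 0.68 without rats G1_44 and G2_125, the ends of that component (permutation p = 0.00847). Marcks had r = 0.24 and rho = 0.27 with the first component (permutation p = 0.377 and 0.312, adjusted 0.485 and 0.467). With the third it had r = -0.17 and rho = 0 (permutation p = 0.526 and 1, adjusted 0.5703 and 1). The part of depth in the level of either gene was not tested further.

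The genes whose levels were most like these across the 16 rats could be given by identifier only. For Gap43 the highest Pearson r among 13852 other genes was 0.93, with ENSRNOG00000016670, which ran from 301 to 444 normalized counts. For Marcks it was 0.91, with ENSRNOG00000007415, which ran from 72.1 in rat G2_125 to 156 in rat G1_134, the rats at the ends of Marcks itself. For each, 1 gene had an r above 0.9. Gap43 had more genes running against it, with 20 at an r below -0.9, against 0 for Marcks. The lowest r for Gap43 was -0.95, with ENSRNOG00000016246, which ran from 118 in rat G2_125 to 274 in rat G1_18, the highest and lowest rats for Gap43, and which is named here after its values were seen. Marcks itself had a higher r with Gap43 than 13.8% of the genes. These correlations are descriptions, and the genes of a rat share its size factor.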

How the data were processed

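RNA was sequenced from the CA1/CA2 region of 17 rats. The authors trimmed adapters, aligned reads to rn5 (STAR 2.4.0a) and counted them per gene (featureCounts 1.4.4). The deposited signal is a normalized count per gene, scaled by DESeq2 size factors. Which annotation release and strand setting were used is not given in the sources used here. Here, 100% of the values above 0 in each rat were whole multiples (within 0.01 reads) of the value of 1 read, which gave the reads.

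Groups were compared with limma 3.58.1 (R 4.3.3, mean-variance trend, no covariates) after adding 1 to each normalized count and taking log2. Genes were kept at a median of at least 5 in the rats of each fit (the 16 rats without G1_80 in the main one). Benjamini-Hochberg adjustment was over all genes kept. Exact permutation tests compared absolute differences of means, and permutation tests of spread compared absolute log2 ratios of SDs (Python 3.11.15, numpy 2.4.6, scipy 1.17.1). The alternatives used a pseudocount of 0.1 or 5, removed the filter or set it at 50, or applied quantile, TMM and recomputed median-of-ratios normalization or array weights. Others ran edgeR 4.0.16 or DESeq2 1.42.0 on recovered reads, took all 17 rats or 13 of them, or left out each rat in turn. The study removed outliers found in a PCA without naming them. Principal components as covariates were added after the data were seen. Tests were checked on simulated data with changes larger than those of Gap43 and Marcks. Those checks do not show whether changes as small as theirs would be found. Genes and lists were chosen with earlier results of these data known. The rule for named genes took both members, the gene most correlated with each, and a list of other PKC substrates. A reference table of assembly GRCr8 matched 0 identifiers, so that list and the cell type markers were not analysed here.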

Additional observations from a re-analysis of the deposited data

Results flagged for a closer look

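Dixon's 95% limit was applied to 12 combinations of a measure (Gap43, Marcks, their ratio and depth) and a group, where chance gives about 1 in 20, and vehicle rat G1_80 passed it in 2. Its log10 recovered reads were 4.52, the next lowest vehicle rat being at 6.43. Its log2 ratio of Gap43 to Marcks was 3.31, the next highest vehicle rat being at 2.41, and rests on 10 reads and 1 read. Its levels of Gap43 and Marcks taken singly did not pass, nor did any other rat.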

How the results depend on the processing

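No paired analysis was possible because the rat numbers of the groups do not overlap and the labels do not give the maze squad of each rat, which the study balanced for treatment. Under 13 alternatives Gap43 (0.073 to 0.18) and Marcks (-0.11 to -0.029) kept the sign of their log2 fold change and stayed short of the threshold, with Gap43 below the median of all genes over all 17 rats. Fits that each left out 1 of the 16 rats gave 0.10 to 0.23 for Gap43, -0.18 to -0.037 for Marcks, 0.16 to 0.41 for the log2 ratio of Gap43 to Marcks and -0.52 to -0.31 for their correlation. The correlation passed an unadjusted 0.05 without rat G1_44 (-0.52), over all 17 rats (-0.55) and over 13 rats (-0.63). In all these fits 0 genes passed after adjustment (0 to 0 with single rats left out). At an unadjusted 0.05, 324 of 13853 genes passed over the 16 rats, a smaller share than chance alone would give on average. This became 625 of 20796 with no filter and 201 of 9653 with a median of at least 50. Over all 17 rats it was 38 of 13844, with 3 principal components 497 of 13853, and with single rats left out 287 to 458. The filters change how many genes were tested, and the cause of these changes was not tested. Marcks rested on as few as 115 reads in a rat of the 16.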
